A study of Mus musculus with 74 samples.

Results

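Of the 1056 double-guide constructs in a lentiviral pool used to start lung tumours in mice, 36 carried a control guide in both places. A construct was counted as a control when the names of both guides were safe, NT, EGFP or NE. This rule uses no measured value, though it was chosen with earlier results of these data known. There were 6 such guides among the 33 in the pool, namely safe_V1, safe_V2, safe_V3, NT_V1, EGFP_V1 and NE_V1, and the 36 constructs are all their ordered combinations, written below as place 1/place 2. They held 7855 of the 378754 tumours listed. All mice shared the background that the labels call KT, which includes R26LSL-Tomato, a fluorescent reporter kept silent by a stop cassette until Cre removes it. The groups were KT mice without Cas9 (9 mice, 4021 control tumours of 209106), KT;H11-Cas9 mice (45 mice, 2891 of 119856) and KT;H11-LSL-Cas9 mice (20 mice, 943 of 49792), in which the label places a Cre-dependent stop before Cas9. The protocol text writes both Cas9 alleles as LSL, whereas the genotype labels tell them apart, and the labels were followed. All mice received the same Lenti-U6BC-sgDbl/Cre pool, whose Cre starts the tumours, and lungs were harvested at about 3 months. The sources used here give no age, sex or viral dose. Mice served as the replicates, so p-values measure the spread between mice.

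Control guides show what a tumour looks like when no gene of interest is edited. A safe guide directs Cas9 to a genomic site without known function, so its cells carry a cut but no changed gene, whereas a non-targeting guide (NT) matches no genomic site and an EGFP guide matches a reporter gene that these mice, by their labels, do not carry. Comparing safe with NT or EGFP guides therefore asks whether cutting alone alters tumour growth, and the same comparison in KT mice, where no guide can cut, gives the background. In Cas9 mice this holds against constructs of NT and EGFP alone, and beside another cutting guide it asks about an added cut. The sources used here do not say what NE stands for, and NE constructs were kept apart for that reason. Guide sequences were not in the files used here, so the guides are given by name.

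A KT mouse held 13191 to 41166 tumours, an H11-Cas9 mouse 1013 to 5364 and an H11-LSL-Cas9 mouse 4 to 4941. In the H11-LSL-Cas9 group, mice 3 and 7 had 16 and 4 tumours and no control tumour. The size of a tumour is its number of cells, estimated by the authors from reads and spike-in barcodes. The smallest tumour listed had 50.1 cells, so smaller ones could not be compared. By mouse, the smallest tumour ran from 50.4 to 56.2 cells in KT and from 50.1 to 105.1 in H11-Cas9. In H11-LSL-Cas9 it ran from 50.4 to 369.3 cells, mice with few tumours included. Spike-in cells summed to near 100000 in 25 H11-Cas9 and 5 KT mice and to near 300000 in the other 20 H11-Cas9, 4 KT and all 20 H11-LSL-Cas9 mice, and values are also given within each spike-in total.

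The 6 control guides entered the pool at unequal levels. In KT mice, whose tumours show the pool without cutting, safe_V1 was in 5.05% of tumours in place 1 and 8.46% in place 2. NE_V1 was in 3.74% and 3.84%, and safe_V2 in 2.04% and 2.94%. The other guides were rare, with NT_V1 in 0.839% and 0.671%, EGFP_V1 in 0.678% and 0.725% and safe_V3 in 0.532% and 0.479%. As a result the constructs differed widely in their number of tumours. NE_V1/safe_V1 had 683 tumours in KT, 488 with H11-Cas9 and 173 with H11-LSL-Cas9, and safe_V1/safe_V1 had 634, 469 and 150. At the other end, EGFP_V1/EGFP_V1 had 3 tumours in KT and 3 in H11-Cas9. No tumour was found for NT_V1/NT_V1 in H11-Cas9 (0 of 119856, which allows a share of up to 0.0025%), nor for NT_V1/NT_V1, EGFP_V1/EGFP_V1 or safe_V3/safe_V3 in H11-LSL-Cas9 (0 of 49792, up to 0.00603%). These limits cover counting error only.

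Control tumours were small in all 3 groups. The median was 269.6 cells in KT, 155.0 with H11-Cas9 and 152.6 with H11-LSL-Cas9, beside 281.5, 175.2 and 159.7 cells over all tumours. In KT mice 16.5% of control tumours and 17.1% of all tumours reached 1000 cells. The corresponding shares were 5.74% and 10.1% with H11-Cas9 and 4.88% and 7.78% with H11-LSL-Cas9. The largest control tumour had 11555 cells in KT (safe_V2/safe_V1), 22729 cells in H11-Cas9 (safe_V1/NE_V1) and 34599 cells in H11-LSL-Cas9 (safe_V1/NE_V1, estimated from 671 reads). In KT, H11-Cas9 and H11-LSL-Cas9, 237, 1531 and 396 tumours of any construct were larger than these.

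The number of safe guides in a construct was set against size among constructs with 2 different guides and no NE. Those with 0 safe guides, NT_V1/EGFP_V1 and EGFP_V1/NT_V1, held only 24 tumours in KT, 20 with H11-Cas9 and 7 with H11-LSL-Cas9. Those with 1 safe guide held 581, 428 and 152, and those with 2 held 861, 659 and 241. Median sizes for 0, 1 and 2 safe guides were 232.0, 293.7 and 264.7 cells in KT and 152.5, 157.3 and 168.3 cells in H11-Cas9. In H11-LSL-Cas9 they were 121.4, 153.2 and 188.2 cells. To take differences between mice out, the mean log2 size of one group was subtracted from that of another within each mouse, and the differences were averaged with weights for the number of tumours.

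None of these comparisons passed the test, a sign-flip permutation over mice adjusted over 45 size comparisons. The step from 1 to 2 safe guides was the best supplied. In Cas9 mice it sets 2 safe cuts against 1, and not a cut against none. It was -0.09 ± 0.14 on the log2 scale in KT (SE, 9 mice, exact test, adjusted p = 0.851), where mice ranged from -0.56 to 0.46 and 5 of 9 were above 0. In H11-Cas9 it was 0.05 ± 0.09 (45 mice, 27 above 0, adjusted p = 0.851), with a 95% interval from -0.13 to 0.23. In H11-LSL-Cas9 it was 0.12 ± 0.11 (17 mice, 9 above 0, adjusted p = 0.703), with an interval from -0.10 to 0.34. Between 0 and 2 safe guides the intervals were wide, from -0.61 to 0.39 in KT, from -0.26 to 0.90 with H11-Cas9 and from -0.18 to 1.22 with H11-LSL-Cas9. Against KT, the change from 0 to 2 safe guides was larger by 0.42 ± 0.39 in H11-Cas9 (adjusted p = 0.55) and by 0.63 ± 0.44 in H11-LSL-Cas9 (adjusted p = 0.537, permutation of mice over 14 comparisons). At this depth a difference of that size was not detectable. Whether the safe guide stood in place 1 or place 2 gave no call in mean size, with differences of 0.04 ± 0.11, -0.15 ± 0.11 and -0.03 ± 0.18 in KT, H11-Cas9 and H11-LSL-Cas9. As a share of tumours with at least 200 cells, however, place 1 minus place 2 was -10.9 points in H11-Cas9 and passed (permutation test, adjusted p = 0.0297), while among those tumours the size difference was 0.18, of the opposite sign.

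Safe against NT or EGFP was far better supplied in constructs that paired 1 control guide with 1 targeting guide. These held 102368 tumours, those with NE included. In Cas9 mice the targeting guide can cut on both sides of this comparison. It therefore asks about a safe cut added to another cut, and not about a cut against none. Here safe was compared with NT or EGFP beside the same targeting guide in the same place and mouse. In KT the difference was -0.01 ± 0.02 (9 mice, 35535 safe and 5198 NT or EGFP tumours), with a 95% interval from -0.04 to 0.02 and 4 of 9 mice above 0. In H11-Cas9 it was -0.03 ± 0.04 (45 mice, 17677 and 3116 tumours), with an interval from -0.10 to 0.04 and 21 of 45 mice above 0. In H11-LSL-Cas9 it was 0.08 ± 0.05 (18 mice, 6947 and 1297 tumours), with an interval from -0.02 to 0.18 and 13 of 18 mice above 0. The permutation test, exact in KT, gave adjusted p = 0.769, 0.769 and 0.582. The differences from KT were -0.01 ± 0.04 in H11-Cas9 (adjusted p = 0.712) and 0.09 ± 0.05 in H11-LSL-Cas9 (adjusted p = 0.48). For scale, control constructs differed from constructs with 2 targeting guides by -0.32 for H11-Cas9 mice, as described below, outside that group's interval. For H11-LSL-Cas9 mice this difference was -0.18, close in size to the upper end of the interval there, with the opposite sign. The scale is rough, since it compares constructs that differ in both guides, whereas safe was exchanged for NT or EGFP in 1 place only.

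The guides were also taken singly beside a targeting guide, each against the other safe, NT and EGFP guides. In KT the 5 differences ran from -0.03 for safe_V3 to 0.03 for EGFP_V1. In H11-Cas9 they ran from -0.03 for safe_V3 to 0.06 ± 0.05 for EGFP_V1. In H11-LSL-Cas9 the lowest was NT_V1 at -0.13 ± 0.05, below 0 in 13 of 18 mice, and the highest was safe_V2 at 0.06 ± 0.04. None passed, and NT_V1 in H11-LSL-Cas9 had p = 0.029 before and 0.163 after adjustment in the permutation test.

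NE constructs were next compared with the other control constructs, again with 2 different guides. They were numerous, with 1720, 1221 and 378 tumours against 1466, 1107 and 400 without NE in KT, H11-Cas9 and H11-LSL-Cas9. The size difference, NE minus no NE, was 0.09 ± 0.06 in KT (5 of 9 mice above 0), 0.00 ± 0.04 in H11-Cas9 (24 of 45) and -0.06 ± 0.08 in H11-LSL-Cas9 (8 of 18). The 95% interval in H11-Cas9 ran from -0.07 to 0.08. Beside a targeting guide, NE minus the other control guides was 0.01 ± 0.02, -0.02 ± 0.02 and 0.04 ± 0.04, from 13829, 8511 and 3349 NE tumours. None of these 6 comparisons passed. No difference in mean size between NE with another control guide and the safe, NT and EGFP constructs was thus called, within these intervals. The mean pools pairs on both sides of 0, for example -0.49 with safe_V2 and 0.19 with safe_V1 in KT. The former pairing, described further on, lay apart.

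In both Cas9 groups, constructs with the same safe guide in both places, mostly safe_V1/safe_V1, had smaller tumours than constructs with 2 different safe guides. In KT the difference had the same sign without passing the adjusted threshold. Among safe, NT and EGFP guides, matched for 0 or 2 safe guides, 10% of same-guide tumours lay below 70.7 cells in KT, the median was 231.0 cells and 90% lay below 1305 cells, against 77.4, 264.6 and 1438 cells with different guides. Medians were 121.6 against 168.1 cells with H11-Cas9 and 124.5 against 181.7 cells with H11-LSL-Cas9. The limits below which 90% of tumours lay were 525.8 against 654.3 and 431.9 against 632.7 cells, and those for 10% were 59.5 against 63.0 and 58.5 against 68.7 cells. Within mice, only constructs with 2 safe guides entered the comparison in the Cas9 groups. The difference within mice was -0.27 ± 0.07 in H11-Cas9 (32 of 45 mice below 0, permutation test, adjusted p = 0.0139), a ratio of 0.831. In H11-LSL-Cas9 it was -0.37 ± 0.08 (13 of 17 below 0, adjusted p = 0.0384), a ratio of 0.775. In the 9 KT mice, numbered 1 to 9, the values were -0.65, -0.13, -0.17, -0.31, 0.26, -0.46, -0.77, -0.01 and -0.25, with a mean of -0.22 ± 0.08. All KT mice but mouse 5 were below 0, and the exact test gave p = 0.0273, or 0.163 adjusted, where 9 mice cannot give less than 0.00391. Neither Cas9 group differed from KT beyond the error (-0.05 ± 0.11 and -0.15 ± 0.12, adjusted p = 0.712 and 0.55).

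The difference depended on the smallest size counted. The share of tumours with at least 200 cells was lower by 11.3 percentage points within mice in H11-Cas9 (31.4% of same-guide tumours and 43.4% of the others, adjusted p = 0.00225) and by 17.7 points in H11-LSL-Cas9 (28.1% and 44.8%, adjusted p = 0.0352). Among tumours of at least 200 cells the size difference was 0.07 in H11-Cas9, turned in sign, and -0.03 in H11-LSL-Cas9. With tumours of at least 10 reads it was -0.15 and -0.31, adjusted p = 0.302 and 0.0339. Same-guide tumours had fewer reads, with medians of 49 against 61 in KT, 21 against 25 with H11-Cas9 and 11 against 13.5 with H11-LSL-Cas9. Within a mouse cells are reads times a constant, so fewer reads restate the smaller size and are not a separate measure. The effect of few reads on the smallest sizes was not tested. Within spike-in totals the H11-Cas9 difference was -0.25 near 100000 and -0.29 near 300000 cells, adjusted p = 0.174 and 0.261 with fewer mice. The H11-LSL-Cas9 call was lost without any 1 of mice 2, 5, 6, 9, 10, 12, 13, 17, 18, 19 and 20, with differences from -0.42 to -0.34 over all 17 such fits and an adjusted p of up to 0.0652.

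Of the same-guide tumours, safe_V1/safe_V1 made up 634 of 692 in KT, and in H11-Cas9 it had 469 tumours. Against safe_V1 paired with safe_V2, safe_V3, NT or EGFP, safe_V1/safe_V1 was smaller by 0.18 ± 0.07 in KT, 0.24 ± 0.06 with H11-Cas9 and 0.35 ± 0.09 with H11-LSL-Cas9, in 8 of 9, 31 of 45 and 14 of 18 mice. These 3 differences passed the permutation test, exact in KT, with adjusted p = 0.0328, 0.00231 and 0.0123. When safe_V1/safe_V1 was left out and NE was included, same minus different guide was -0.99 ± 0.07 (9 of 9 mice below 0), -0.49 ± 0.13 (25 of 35) and -0.76 ± 0.26 (8 of 9), with adjusted p = 0.0064, 0.00266 and 0.043 in the permutation test, exact with 9 mice. Both sets belong to 12 comparisons added after the data were seen, which share tumours with the planned ones. For safe_V1/safe_V1 in KT the exact permutation test gave p = 0.0273 before adjustment. Over the 45 size comparisons an equal p in KT was 0.163 after adjustment. The second set was not matched for the number of safe guides, and in H11-LSL-Cas9 it held 15 same-guide tumours, 12 of them NE_V1/NE_V1. NE_V1/NE_V1 in KT was below NE with another guide in each mouse, at -1.26, -0.77, -0.84, -0.89, -1.61, -1.54, -1.08, -0.94 and -1.07 in mice 1 to 9, or -0.99 ± 0.08 in the mean (exact test, adjusted p = 0.0384), about 0.502 of the size. Leaving out any KT mouse gave -1.07 to -0.96, but 8 mice cannot give an exact p below 0.00781, and the adjusted p was then 0.0586. In H11-Cas9 the NE difference was -0.55 ± 0.16 (23 of 32 mice below 0, permutation test, adjusted p = 0.0384), and this call was lost in all 5 alternatives that did not leave out a single mouse. It was -0.24 with tumours of at least 200 cells (adjusted p = 0.73), -0.39 with at least 10 reads (0.407), and -0.60 and -0.50 near 100000 and 300000 cells (0.286 and 0.418), and as a share of tumours with at least 200 cells it was -12.3 points (0.251). In H11-LSL-Cas9 it was -0.84 ± 0.36 from 12 NE_V1/NE_V1 tumours (6 of 7 mice below 0, exact test, adjusted p = 0.469).

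The comparison was also made for targeting guides. With the same targeting guide in both places, tumours were smaller than with 2 different targeting guides by 0.74 ± 0.05 in KT (9 of 9 mice, exact test, adjusted p = 0.0064), by 0.60 ± 0.06 in H11-Cas9 (42 of 45 mice, adjusted p = 0.00012) and by 0.37 ± 0.05 in H11-LSL-Cas9 (18 of 18 mice, adjusted p = 0.00024). These p-values come from the permutation test adjusted over the same 12 added comparisons. Both kinds of construct were matched for the guide in place 1. In Cas9 mice 2 different targeting guides can target 2 genes. The repeat of a guide and the number of genes targeted therefore cannot be told apart there.

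Same-guide constructs were also fewer than the product of the 2 guides' own shares of the tumours would give. In KT all 6 same-guide control constructs fell short of this product, at 0.711 of it for safe_V1, 0.351 for safe_V2, 0.938 for safe_V3 (5 tumours), 0.509 for NT_V1 (6 tumours), 0.292 for EGFP_V1 (3 tumours) and 0.477 for NE_V1. Summed, 835 tumours stood against 1345 from the product, a ratio of 0.621. The ratio was 0.499 for the 26 same-guide targeting constructs, all of them below 1, and 0.977 for the 30 control constructs with different guides, of which 16 were below 1. In H11-Cas9 the same-guide control ratio was 0.579 and in H11-LSL-Cas9 0.487. Both the small size of NE_V1/NE_V1 tumours and the low number of same-guide constructs were thus measured in mice without Cas9. Because the table starts near 50 cells, and higher in some Cas9 mice, fewer tumours and tumours too small to be listed cannot be told apart.

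Among the 15 pairs of different control guides, both orders pooled, the pair of NE_V1 with safe_V2 had the lowest mean log2 size within mice in each of the 3 groups. By median cells safe_V3 with NT_V1, with 7 and 10 tumours, was lower in KT and H11-Cas9. It was singled out after the values were seen and is described without a test. In KT its 279 tumours had a median of 197.7 cells, and 12.5% reached 1000 cells. Against the other control tumours with 2 different guides the difference was -0.93, -0.70, -0.40, -0.32, -0.55, -0.10, -0.03, -0.65 and -0.43 in mice 1 to 9. Every KT mouse was below 0, though mice 6 and 7 only slightly, and the mean was -0.49 ± 0.08. In H11-Cas9 the difference was -0.37 ± 0.08 from 206 tumours (32 of 42 mice below 0), and in H11-LSL-Cas9 it was -0.99 ± 0.15 from 39 tumours (14 of 15 mice below 0), with a median of 94.1 cells and no tumour of 1000 cells. Both orders showed it, at -0.39 ± 0.10 for NE_V1/safe_V2 and -0.37 ± 0.14 for safe_V2/NE_V1 in KT, -0.30 ± 0.12 and -0.38 ± 0.17 in H11-Cas9, and -0.85 ± 0.10 and -1.11 ± 0.22 in H11-LSL-Cas9, each relative to control constructs with 2 different guides and no NE. As in same-guide constructs, the tumours were also few, at 0.709, 0.751 and 0.405 of the product of the guides' shares, while the median over the 15 pairs was 1.01, 1.04 and 0.917.

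With safe_V1, the most frequent partner, neither guide lay low. NE_V1 with safe_V1 lay at 0.19 ± 0.06, 0.08 ± 0.05 and 0.11 ± 0.12 in the 3 groups, with 1.03, 1.06 and 1.03 of the number from the product. The pair of safe_V2 with safe_V1 lay at -0.04 ± 0.09, 0.01 ± 0.08 and 0.04 ± 0.10, with 1.01, 1.10 and 1.20 of the number. With rarer partners safe_V2 varied more, for example at -0.20 ± 0.16 with safe_V3 in KT (49 tumours), -0.21 ± 0.13 with NT_V1 in H11-Cas9 (57 tumours) and -0.36 ± 0.25 with EGFP_V1 in H11-LSL-Cas9 (20 tumours). Of the pairs of different guides of any kind with at least 30 tumours, 3 of 511 in KT, 12 of 468 with H11-Cas9 and 0 of 393 with H11-LSL-Cas9 had a lower ratio of number than NE_V1 with safe_V2, and 5, 11 and 0 a smaller mean size. The difference was -0.23 in KT, -0.08 with H11-Cas9 and -0.74 with H11-LSL-Cas9 among tumours of at least 200 cells, and -0.44 in H11-LSL-Cas9 with at least 10 reads. It was -0.40 and -0.56 in KT and -0.41 and -0.33 in H11-Cas9 near 100000 and 300000 cells. In the fit over all constructs neither order passed the threshold in any group, with adjusted p between 0.0944 and 0.583 from the permutation test, exact in KT.

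That fit compared each construct with the safe, NT and EGFP constructs of the same mouse. In KT no construct of 1045 tested was called larger or smaller (0% and 0%), and so none of the 29 control constructs among them. With 9 mice the exact test cannot give less than 0.00391, so that a call over 1045 constructs was hardly possible: NE_V1/NE_V1, below 0 in 9 of 9 mice, had an adjusted p of 0.24. In H11-Cas9, 14.1% of 1030 constructs were larger and 1.55% smaller, and of 31 control constructs 0 were larger and 2 smaller. These were safe_V1/safe_V1 at -0.23 ± 0.06 (32 of 45 mice below 0, adjusted p = 0.00954) and NE_V1/NE_V1 at -0.53 ± 0.17 (21 of 32 mice below 0, adjusted p = 0.0351), both from the permutation test. In H11-LSL-Cas9 none of 965 constructs passed (0%), and 23 control constructs were tested. Before adjustment 52 constructs were larger and 49 smaller there at p under 0.05, and of the control constructs 0 and 3.

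At the ends of the range, safe_V2/safe_V2 was lowest in KT at -1.13 ± 0.11 (44 tumours, below 0 in 8 of 9 mice), before NE_V1/NE_V1 at -0.95 ± 0.10. The highest in KT were safe_V3/NE_V1 at 0.54 ± 0.20 (60 tumours) and EGFP_V1/NT_V1 at 0.39 ± 0.52 (14 tumours). In H11-Cas9 the lowest were safe_V2/safe_V3 at -0.69 ± 0.25 (14 tumours) and NE_V1/NE_V1, and the highest safe_V3/NE_V1 at 0.39 ± 0.25 and NE_V1/safe_V3 at 0.35 ± 0.34. In H11-LSL-Cas9 the lowest were both orders of NE_V1 with safe_V2, and the highest EGFP_V1/NE_V1 at 0.63 ± 0.32 (8 tumours) and safe_V3/safe_V1 at 0.62 ± 0.51 (13 tumours). The 2 highest in H11-Cas9 are the 2 orders of 1 pair. In the other groups the reverse orders were 0.26 ± 0.36 for NE_V1/safe_V3 and -0.34 ± 0.20 for NT_V1/EGFP_V1 in KT, and -0.25 ± 0.23 for NE_V1/EGFP_V1 and 0.25 ± 0.27 for safe_V1/safe_V3 in H11-LSL-Cas9. Apart from the same-guide constructs no control construct was called in any group.

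When each of the 33 guides was scored beside another safe, NT or EGFP guide, 36.4% of guides were called larger and 3.03% smaller in H11-Cas9, and 0 of the 6 control guides in either direction. In that group the control guides lay between -0.09 ± 0.11 for NT_V1 and 0.15 ± 0.12 for safe_V1, and the 27 targeting guides between -0.34 and 0.58. In KT, where no guide of the 33 was called and the same lowest p applies, the control guides lay between -0.19 ± 0.11 for safe_V3 and 0.09 ± 0.06 for NE_V1, and the targeting guides between -0.12 and 0.18. In H11-LSL-Cas9, 3.03% of guides were called larger and none smaller, and the control guides lay between -0.20 ± 0.14 for EGFP_V1 and 0.32 ± 0.26 for safe_V3. The order of the 6 guides changed from group to group. For example, safe_V3 ranked 33rd of 33 in KT and 2nd in H11-LSL-Cas9, within errors that span most of that range.

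Control tumours with 2 different guides were smaller than tumours with 2 targeting guides in both Cas9 groups, whereas in KT the mean difference was near 0. The difference was 0.00 ± 0.03 in KT (6 of 9 mice above 0, 95% interval from -0.05 to 0.05). It was -0.32 ± 0.04 in H11-Cas9, below 0 in 43 of 45 mice (permutation test, adjusted p = 0.00045), a ratio of 0.803. In H11-LSL-Cas9 it was -0.18 ± 0.05, below 0 in 13 of 18 mice (adjusted p = 0.0436). Set against KT, the H11-Cas9 difference held at -0.32 ± 0.05 (adjusted p = 0.0007) and the H11-LSL-Cas9 difference did not pass at -0.18 ± 0.06 (adjusted p = 0.132). In H11-Cas9 it was -0.35 near 100000 and -0.28 near 300000 cells, and -0.49 among tumours of at least 200 cells, and against KT it lost its call near 300000 cells at -0.31 (adjusted p = 0.077). In H11-LSL-Cas9 tumours of at least 200 cells gave -0.36 within mice (adjusted p = 0.011) and -0.38 against KT, which passed (adjusted p = 0.00578). Unweighted, the H11-LSL-Cas9 difference within mice was -0.15 and did not pass (adjusted p = 0.217). The H11-LSL-Cas9 call within mice was lost without any 1 of mice 2, 4, 5, 9, 10, 11, 13, 15, 16, 17, 18 and 20, with differences from -0.20 to -0.16 over all 18 such fits.

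The share of all tumours that were control tumours was 1.90% ± 0.09 in KT (SD, n = 9), from 1.76% to 2.06%. It was 2.43% ± 0.39 in H11-Cas9 (SD, n = 45), from 1.71% to 3.73%, and 38 of the 45 mice lay above the highest KT mouse. The difference of 0.53 ± 0.07 percentage points passed the permutation test over 28 share comparisons (adjusted p = 0.00028). It was 0.73 points near a spike-in total of 100000 cells (adjusted p = 0.00154) but 0.28 points near 300000 cells (adjusted p = 0.272), and 0.28 points among tumours of at least 200 cells (adjusted p = 0.0608). In H11-LSL-Cas9 the share was 1.77% ± 0.50 (SD, n = 19), from 0% to 2.28%, and the difference from KT was -0.13 ± 0.12 points (adjusted p = 0.555). The 0% is mouse 3, with 16 tumours in all, and without it the difference was -0.03 points (adjusted p = 0.82).

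Within the control constructs, no shift in number between safe guides and NT or EGFP passed the test in either Cas9 group. Of control tumours with 2 different guides and no NE, 58.1% ± 3.5 carried 2 safe guides in KT (SD, n = 9), 59.8% ± 8.8 in H11-Cas9 (n = 44) and 60.8% ± 9.5 in H11-LSL-Cas9 (n = 15). The groups overlapped widely, and the differences from KT were 1.69 ± 1.78 and 2.75 ± 2.73 points (permutation test, adjusted p = 0.555 for both). Beside a targeting guide, safe made up 87.28% ± 0.46 of safe, NT and EGFP in KT, 87.87% ± 1.53 with H11-Cas9 and 86.92% ± 1.44 with H11-LSL-Cas9. The H11-Cas9 difference of 0.59 ± 0.27 points had p = 0.0452 and, adjusted, 0.158. It was 1.26 points near 100000 cells (adjusted p = 0.0211) and -0.24 points near 300000 cells (adjusted p = 0.818), and it was 0.07 points once each share was taken against that of the same targeting guide and place (adjusted p = 0.936).

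By single guide beside a targeting guide, safe_V1 made up 45.1% of the control guides in KT and 46.2% in H11-Cas9, and NT_V1 4.91% and 4.55% (adjusted p = 0.0734 for both, permutation test). Against the same targeting guide and place these differences were 0.72 and -0.17 points, adjusted p = 0.200 and 0.419. NT_V1 near 100000 cells passed at -0.64 points (adjusted p = 0.0211) and was -0.02 points near 300000 cells. EGFP_V1, safe_V2 and safe_V3 differed from KT by at most 0.13 points with H11-Cas9 and 0.35 points with H11-LSL-Cas9. NE_V1 differed by -0.56 and -0.49 points (permutation test, adjusted p = 0.201 and 0.555). Against the same targeting guide and place, NE_V1 was at -0.70 points in H11-Cas9 (permutation test, adjusted p = 0.200).

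The shares of NE and same-guide constructs were compared in the same way, and neither passed the adjusted threshold. NE constructs were 53.8% ± 2.2 of control tumours with 2 different guides in KT, 52.4% ± 7.6 with H11-Cas9 and 49.3% ± 7.7 with H11-LSL-Cas9, where 10 of 17 mice lay below the lowest KT mouse (p = 0.0372, adjusted p = 0.158, permutation test). Same-guide constructs were 43.93% ± 3.89, 41.33% ± 11.11 and 36.04% ± 12.49 of control tumours with 0 or 2 safe guides (p = 0.0333, adjusted p = 0.158 in H11-LSL-Cas9). With tumours of at least 10 reads the latter difference was -12.7 points and passed (adjusted p = 0.0238). With that minimum of reads NE_V1/NE_V1, as a share of NE tumours in H11-LSL-Cas9, also passed at -5.74 points from KT (adjusted p = 0.0223). Over all tumours NE_V1/NE_V1 made up 7.89% ± 3.46 of NE tumours in KT, 5.29% ± 4.82 with H11-Cas9 and 2.74% ± 5.02 with H11-LSL-Cas9 (adjusted p = 0.225 and 0.0734).

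The number of tumours per construct was compared with KT in a fit over 1020 constructs with edgeR's quasi-likelihood test, relative to all tumours of a mouse. In H11-Cas9, 30.4% of constructs were higher and 28% lower than in KT, and of 27 control constructs 7 were higher and 0 lower. The share called higher was thus no larger among control constructs than over all constructs, while the share called lower was smaller. All 7 carried safe_V1, the most frequent guide: safe_V1/safe_V1, safe_V1/safe_V2, safe_V2/safe_V1, safe_V1/NT_V1, NT_V1/safe_V1, safe_V1/NE_V1 and NE_V1/safe_V1. Their log2 differences ran from 0.32 ± 0.09 for NE_V1/safe_V1 (adjusted p = 0.00136) to 0.66 ± 0.26 for safe_V1/NT_V1 (adjusted p = 0.0181), with the lowest adjusted p of 0.000127 for safe_V1/safe_V2 at 0.50 ± 0.12. The median over the 27 was 0.29, beside 0.09 over all constructs, and 22 of 27 were above 0. This direction depended on the scaling: with TMM factors 0 control constructs were higher and 1 lower, with a median of -0.05 beside -0.25 over all constructs, and with DESeq2 size factors 0 were called in either direction, with medians of 0.04 and -0.19. Over all constructs the split was 138 higher and 405 lower with TMM and 151 and 370 with DESeq2, against 310 and 286. Among tumours of at least 200 cells only 1 control construct was higher. The 2 highest values were 0.71 ± 0.31 for safe_V3/safe_V2 (adjusted p = 0.054) and that of safe_V1/NT_V1, and the 2 lowest were -0.36 ± 0.33 for safe_V2/safe_V2 and -0.22 ± 0.21 for NE_V1/NE_V1.

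In H11-LSL-Cas9, 10.2% of constructs were higher and 11.5% lower than in KT, and of the 27 control constructs 0 were higher and 1 lower. This was NE_V1/NE_V1 at -1.42 ± 0.37 (edgeR, adjusted p = 0.00138), with 12 tumours among 49792. The median over the 27 was -0.03, beside 0.05 over all constructs. Also low were safe_V2/safe_V2 at -1.47 ± 0.55 (adjusted p = 0.0523), and NE_V1/safe_V2 and safe_V2/NE_V1 at -0.79 ± 0.31 and -0.67 ± 0.34 (adjusted p = 0.0536 and 0.169). The highest were safe_V1/NT_V1 at 0.54 ± 0.35 and safe_V1/safe_V3 at 0.50 ± 0.39. With TMM factors 4 control constructs were lower and with DESeq2 size factors 2, while 193 and 191 of all constructs were lower against 117. A control construct with fewer cells per tumour and one with fewer tumours started cannot be told apart where tumours fall below the smallest size listed.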

How the data were processed

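Each mouse gave 1 library, in which barcode and guides were amplified from 32 µg of lung DNA, per the labels. The deposited table holds read counts per tumour without normalization and a signal, the authors' estimate of the cells in each tumour. In each mouse, cells equalled reads times a constant, at a median of 4.82 cells per read for KT, 7.96 for H11-Cas9 and 12.9 for H11-LSL-Cas9, so small tumours of the Cas9 groups rest on few reads. How sequences were matched and filtered is not given in the sources used. The smallest entries had 3 reads and 50.1 cells, and 288 spike-in entries of 379042 were left out.

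Part of the KT background is not reported here. Groups were the labelled genotypes, with mice numbered in accession order. Sizes were mean log2 cells, one group minus another within each mouse, weighted by tumours and tested by 2-sided sign flips of mice (exact below 10 mice, otherwise 100000 resamples, which cannot give less than 1e-05). Shares needed at least 10 tumours and were compared with KT by a 2-sided studentised permutation of mice, as were sizes. Tumours per construct (at least 30 tumours) were tested with edgeR 4.0.16, the mouse's tumours as library size, with TMM factors and DESeq2 1.42.0 as alternatives. All p-values were adjusted by the Benjamini-Hochberg method within each family, with a call under 0.05. Computations ran in Python 3.11.15 (numpy 2.4.6, pandas 2.3.3, scipy 1.17.1) and R 4.3.3. The size test within mice, the size test per construct, the share test and the edgeR test were tried on simulated data. The size test against KT, the size test per guide and DESeq2 were not.

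The control guides, groups and lists were chosen with earlier results of these data known. Named were all 6 control guides, control constructs past the threshold, and in each group the 2 highest and 2 lowest in size and number. Alternatives were tumours of at least 200 cells or 10 reads, unweighted mice, each spike-in total, a log2 share with a pseudocount of 0.5, at least 30 tumours in a share, other scalings and leaving out each KT mouse. Added after the data were seen were leaving out each mouse of a called size comparison, the same-guide comparisons by guide and for targeting guides, the pairs of control guides, shares within each targeting guide and place, mice named LA, and the spike-in total as a covariate.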

Additional observations from a re-analysis of the deposited data

Results flagged for a closer look

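Of 33 sets of 4 to 10 mice examined, 2 held a mouse far from the others, about what chance gives at 1 in 20. Both concern KT mouse 2, the mouse with the most tumours. Its difference between safe_V1 and the other control guides beside a targeting guide was the lowest of the 9 KT mice at -0.0957 (log2), with the next lowest at -0.02 and a median of 0.00. Its difference for safe_V2 was the highest at 0.140, with the next at 0.02 and a median of 0.01. Neither comparison passed the threshold. The size of control constructs minus constructs with 2 targeting guides differed between H11-Cas9 and KT mice by -0.32, by the studentised permutation of mice (adjusted p = 0.0007).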

How the results depend on the processing

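Of 87 tested results, 8 passed the threshold and 79 did not. Over 786 alternatives of the 79, 10 passed, 87 changed sign and 0 did both. The number of mice and of control tumours limits precision, and tumours under 50.1 cells or 3 reads are not seen. Size comparisons were made within mice. No paired analysis was possible between genotypes because these were different mice. The labels give the mice no replicate number, and the numbers used here follow accession order. The causes of the changes below were not tested, except that splitting by spike-in total leaves fewer mice. The H11-LSL-Cas9 mice were all near 300000 cells, so their differences within mice keep their values there and only the adjustment changes. Their differences from KT do move there, since only 4 KT mice remain.

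The calls that changed, those named in the report included, were as follows. The same minus different guide difference in H11-Cas9 was 0.07 with tumours of at least 200 cells, thus reversed, -0.15 with at least 10 reads, -0.25 near 100000 cells and -0.29 near 300000 cells, none of them past the threshold. In H11-LSL-Cas9 it was -0.027 with at least 200 cells, -0.29 unweighted and -0.37 near 300000 cells, and -0.42 to -0.34 when 1 mouse was left out. The H11-Cas9 difference in the share of control tumours was 0.28 points with at least 200 cells, 0.28 near 300000 cells and 0.26 in mice named LA near 300000 cells. NE_V1/NE_V1 against NE with another guide lost its call in KT at -0.74 with at least 200 cells (adjusted p = 0.0586, permutation test) and at -1.15 and -0.89 near 100000 and 300000 cells, and in H11-Cas9 in the 5 settings given in the report. Control minus targeting constructs lost it in H11-LSL-Cas9 at -0.15 unweighted, at -1.98 points of tumours with at least 200 cells and near 300000 cells, and in H11-Cas9 against KT at -0.31 near 300000 cells, and gained it in H11-LSL-Cas9 against KT at -0.38 with at least 200 cells. In H11-LSL-Cas9 against KT, control minus targeting constructs also passed in 1 of 9 fits without a KT mouse (permutation test, adjusted p = 0.0313). Over these fits the difference ran from -0.20 to -0.17. Safe in place 1 minus place 2 gained its call in H11-Cas9 at -10.9 points of tumours with at least 200 cells. With at least 10 reads, shares gained it for safe (0.95 points), safe_V1 (1.34) and NT_V1 (-0.54) beside a targeting guide in H11-Cas9, and for same-guide constructs (-12.7) and NE_V1/NE_V1 (-5.74) in H11-LSL-Cas9. Near 100000 cells, safe (1.26) and NT_V1 (-0.64) gained it in H11-Cas9. Constructs higher in number than in KT were 138 with TMM and 151 with DESeq2 with H11-Cas9, and 43 and 34 with H11-LSL-Cas9, where 193 and 191 were lower. Constructs of smaller size in H11-Cas9 numbered 4 with at least 200 cells and 5 unweighted, against 16, and 1 was larger in H11-LSL-Cas9 unweighted, against 0.

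The other reversals concern values that did not pass before or after. Size differences within mice are on the log2 scale, and those of single guides are against the other control guides beside a targeting guide. With tumours of at least 200 cells, H11-LSL-Cas9 gave -0.063 for 2 minus 1 safe guides, 0.14 for NE minus no NE, 0.31 for safe in place 1 minus place 2 and -0.044 for safe_V1. H11-Cas9 gave 0.18 for safe in place 1 minus place 2, -0.011 for safe_V1 and 0.077 for NT_V1, and KT gave -0.0022 for NE_V1, 0.045 for NT_V1 and -0.019 for EGFP_V1. Against KT, NE minus no NE became 0.064 and 0.094 and same minus different guide 0.16 and 0.062 for H11-Cas9 and H11-LSL-Cas9. As percentage points of tumours with at least 200 cells, KT gave 0.71 for 2 minus 0 safe guides, 3.06 for 1 minus 0, -0.26 for safe in place 1 minus place 2, 0.12 for safe minus NT or EGFP beside a targeting guide, -0.35 for control minus targeting constructs and 0.33 for safe_V3. On that scale H11-Cas9 gave -3.04 for NE minus no NE and 0.070 for safe minus NT or EGFP, and H11-LSL-Cas9 gave 0.88 for safe in place 1 minus place 2. With at least 10 reads, KT gave 0.0089 for 1 minus 0 safe guides, H11-Cas9 -0.0031 for safe_V1 and 0.029 for NT_V1, and H11-LSL-Cas9 0.18 for safe in place 1 minus place 2, -0.013 for safe_V1 and 0.0074 for safe_V3.

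Near 100000 cells, KT gave -0.029 for control minus targeting constructs, 0.0099 for safe_V1, -0.020 for safe_V2 and 0.033 for NT_V1. H11-Cas9 gave -0.092 for 2 minus 1 safe guides (-0.046 against KT), 0.021 for safe_V3 and 0.025 for NT_V1. Near 300000 cells, KT gave 0.20 for 2 minus 0 and 0.25 for 1 minus 0 safe guides and -0.0047 for NE_V1. H11-Cas9 gave -0.14 for 1 minus 0 safe guides, -0.069 for NE minus no NE, -0.0016 for safe_V1 and 0.020 for safe_V2, and, against KT, -0.029 for 2 minus 0 safe guides and 0.0035 for NE_V1. Unweighted, KT gave -0.0026 for safe_V2 and 0.0063 for NT_V1, and, against KT, H11-Cas9 gave 0.016 for same minus different guide and 0.0062 for safe minus NT or EGFP, and H11-LSL-Cas9 -0.00053 for NE_V1.

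Shares are given in percentage points against KT, those of single guides beside a targeting guide. With at least 200 cells, 0 safe guides stood at -0.46 (H11-Cas9) and -0.47 (H11-LSL-Cas9), safe_V2 at 0.074 in H11-Cas9, and for H11-LSL-Cas9 safe stood at 0.42, safe_V1 at 0.44, NT_V1 at -0.053 and EGFP_V1 at -0.24. With at least 10 reads, 0 safe guides stood at -0.95 and NT_V1 at -0.14 in H11-LSL-Cas9, and safe_V2 at 0.15 in H11-Cas9. For H11-Cas9, safe_V2 was 0.048 near 100000 cells. Near 300000 cells, 0 safe guides were -0.51, 2 safe guides -0.062, safe -0.24 and EGFP_V1 0.23, and 0 safe guides were -0.42 in H11-LSL-Cas9. In mice named LA near 300000 cells these 4 values for H11-Cas9 were -0.82, -1.99, -0.13 and 0.20. With at least 30 tumours in a share, 0 safe guides were -0.54 in H11-LSL-Cas9 and same-guide constructs 0.96 in H11-Cas9. As a log2 ratio, the share of control tumours was 0.012 higher in H11-LSL-Cas9. Against the same targeting guide and place, safe_V3 was 0.016 and EGFP_V1 0.22 in H11-Cas9. Leaving out 1 KT mouse gave -0.11 to 0.21 for 0 safe guides with H11-Cas9, -0.15 to 0.18 with H11-LSL-Cas9, -0.060 to 0.037 for EGFP_V1 and -0.11 to 0.099 for safe_V2 in H11-Cas9, and -0.13 to 0.040 for safe_V1 in H11-LSL-Cas9.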
